A study of Mus musculus with 4 samples.

Results

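The genes described here are 47 genes of mitosis and chromosome segregation, measured in cultured MEFs (embryonic fibroblasts of the mouse, cells of connective tissue). Each gene was read by the brightest of the gene probes that carry its name, out of 27745 gene names and 41174 gene probes on the array. The genes were grouped by their role in cell division. The spindle checkpoint class held 5 genes, the kinesins 6, the kinetochore and centromere 5, condensin 5, chromosome structure 2, cytokinesis 4, the chromosomal passenger complex 4, mitotic entry 8, the anaphase-promoting complex and sister separation 4, and spindle assembly 4. The genes were listed by name and role and by no cut-off on a measured value, although earlier results of these data were known when the list was drawn up.

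MEFs homozygous for a deletion of Ccng1 (CycG1-/-, termed G1KO) and MEFs homozygous for a deletion of Ccng2 (CycG2-/-, termed G2KO) were set against separate wild-type (WT) cultures, in order to find transcripts that differ without either G-type cyclin. In G1KO the coding exons of Ccng1 were replaced by a neomycin resistance cassette, and which part of Ccng2 is missing in G2KO is not given in the sources used here. The background was C57BL/6J for all cultures, although a second label of the cyclin G2 samples reads C57BL/7J. Neither knockout received any treatment, and RNA was taken during logarithmic growth from cultures started from mid-gestation embryos. Each comparison consisted of 1 knockout RNA and 1 WT RNA, hybridised together on 2 arrays of 2 colours with the dyes Cy5 and Cy3 exchanged. The swapped arrays carry the same RNAs and count as 1 replicate, so that no test between genotypes is possible, no p-value is given, and every ± below is the technical SD between both arrays of a pair. The names of the deposited files mark the WT culture of G1KO as PDL 28, G1KO as PDL 30 and the WT culture of G2KO as PDL 23, with no such mark for G2KO.

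Cells enter mitosis when cyclin B and its kinase Cdk1 are activated, condensin compacts the chromosomes, kinesins build the spindle, and kinetochores attach each chromatid to it. The spindle checkpoint holds back the anaphase-promoting complex until every kinetochore is attached, after which securin is destroyed, separase opens cohesin, and the cell divides at the midzone. Transcripts of this machinery accumulate from S phase to mitosis, largely through the DREAM and MuvB complexes and FoxM1, so that their level in a growing culture follows the share of cells in these phases. In bulk RNA a larger share of such cells and more RNA per cell cannot be told apart.

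The promoters of these genes are known for a pair of short elements, the CHR, through which MuvB complexes bind, and the CCAAT box, which binds NF-Y. RefSeq promoters (GRCm38.p6, 250 bases before to 50 after each annotated start) were matched for 40 of the 47 genes by symbol, and Kif20a, Smc4, Aurkb, Incenp, Cdc25c, Foxm1 and Tpx2 were not in the table. The words TTTGAA and TTTAAA (CHR), CCAAT, and the E2F words TTTGGCGC, TTTCGCGC, TTTCCCGC, TTTGCCGC, TTCGCGCC, TTCCCGCC and TTGGCGCC were searched on both strands, and overlapping matches were kept. A CHR word was found in any promoter of 32 of the 40 genes (80.0%). The share was 30.5% of the 26985 other genes and 27.6% of all 32851 promoters in the table. The CCAAT word was found in 31 of the 40 (77.5%), compared with 41.0% of other genes and 37.4% of all promoters. Both words were held by 28 genes. An E2F word was found in 2 of the 40 (5.0%), compared with 5.51% of other genes and 4.80% of all promoters. The CHR words clustered at the start itself. A match beginning within 50 bases on either side was present in 28 of the 40 genes (70.0%) and in 8.28% of all promoters, a window chosen after the positions were seen.

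The sequences below are shown because they belong to the 3 genes with a CHR word whose RNA was highest in the RNA labelled G2KO over its WT, and to Pttg1, whose RNA was lowest. Each runs from 120 bases before to 50 after the annotated start, so that base 121 is the first transcribed base, and capitals mark CHR and CCAAT matches on either strand. They lie on GRCm38.p6 at chr7:80294331-80294500 (Prc1, plus strand), chr11:78301471-78301640 (Spag5, plus strand), chr6:124830056-124830225 (Cdca3, plus strand) and chr11:43425932-43426101 (Pttg1, minus strand).
Prc1: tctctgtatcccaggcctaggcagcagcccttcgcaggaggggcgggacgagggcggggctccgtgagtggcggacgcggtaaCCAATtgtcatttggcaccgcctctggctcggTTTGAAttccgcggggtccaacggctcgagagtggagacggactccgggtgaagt
Spag5: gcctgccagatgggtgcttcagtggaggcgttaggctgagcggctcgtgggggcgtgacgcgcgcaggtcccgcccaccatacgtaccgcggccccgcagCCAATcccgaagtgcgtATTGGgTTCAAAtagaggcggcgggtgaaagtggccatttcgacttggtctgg
Cdca3: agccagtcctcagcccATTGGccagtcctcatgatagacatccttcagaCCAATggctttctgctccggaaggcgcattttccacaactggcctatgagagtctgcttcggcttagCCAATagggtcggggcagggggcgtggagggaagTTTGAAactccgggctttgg
Pttg1: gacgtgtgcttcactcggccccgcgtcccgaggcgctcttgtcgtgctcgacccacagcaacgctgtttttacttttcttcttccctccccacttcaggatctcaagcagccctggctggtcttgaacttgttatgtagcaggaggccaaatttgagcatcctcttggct
In Prc1 the CHR word begins 5 bases before the start shown and the CCAAT word 37 bases before it. Counted from a second annotated start of Prc1, these words begin at -30 and -62. In Spag5 the CHR word begins at base 4 after the start, and in Cdca3 at base 31. Pttg1 has none of the words in its window, and neither do Mad2l1, Ncaph, Nuf2 and Nusap1. That these letters are absent from a window says nothing about binding.

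**Figure D1:**
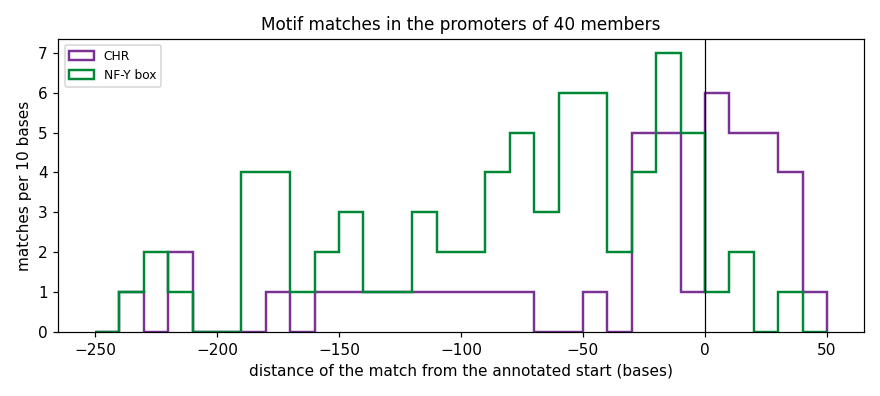
Matches of the CHR words (purple) and of the NF-Y box word (green) in the promoters of 40 genes, counted per 10 bases (vertical axis) by the distance of the match from the annotated start in bases (horizontal axis, start at 0, first annotated start of each gene). CHR matches gather on both sides of the start, and NF-Y box matches spread over the bases before it.

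All 47 genes were well above background in both genotypes of both comparisons. Their median brightness was 12.55 on the log2 scale, compared with 8.87 and 8.91 for all probes assessed in the G1KO and G2KO comparisons. Of the targeted genes, Ccng1 had a log2 ratio of -6.67 in G1KO at the brighter of its 2 probes, whereas Ccng2 was not reduced at its single probe in the knockout RNA of the other pair (0.28 and -0.10 on the individual arrays). That probe may lie outside the deleted part, and the sample is termed the RNA labelled G2KO, so that each direction in that comparison rests on its label. All 12 fibroblast markers were above background in all 4 RNAs. In G1KO 4 of them were at least 1.5-fold higher on each array and 2 lower (median log2 ratio -0.21). In the RNA labelled G2KO 9 of them were at least 1.5-fold lower on each array (median log2 ratio -1.64), and 4 of the 7 neural and glial markers that could be assessed were at least 1.5-fold higher, including En2 (7.02) and Foxa2 (6.10), while Tubb3 was lower (-0.73). In G1KO 1 of the 5 neural and glial markers assessed was higher, Nes (2.34, and 3.37 in the RNA labelled G2KO), and 1 lower, Foxa2 (-1.16). The log2 signal of Foxa2 was 12.46 to 13.80 in both RNAs of the G1KO pair. It was 13.06 and 13.14 in the RNA labelled G2KO, and 7.08 and 6.91 in its WT. In G1KO 5 of 7 mesothelial markers were lower and 1 was higher (median -2.79). Of 4 germ cell markers 1 could be assessed in G1KO, Ddx4, which was lower as well (-5.93). Of the skeletal muscle, endothelial and blood cell markers, at most 2 per list were above background in any RNA. Xist was higher in both knockout RNAs (7.54 and 7.24), and the Y-linked gene Eif2s3y was above background in neither of them. In both WT RNAs Eif2s3y was above background on both arrays (log2 signals of 11.68 to 12.59), as were the Y-linked genes Ddx3y and Kdm5d. By these genes both WT cultures were male and both knockout cultures female, so that sex and genotype coincide in each pair. The part that cell makeup, the sex of the embryos or time in culture has in the ratios below was not tested, and these differences and genotype cannot be told apart.

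Mitotic genes were higher almost throughout in the RNA labelled G2KO than in its WT. The median log2 ratio of the 47 genes was 0.56, or 1.48-fold, with 0.52 and 0.55 on the individual arrays, whereas the median of all 25431 probes assessed was -0.01. The RNA labelled G2KO was higher on both arrays for 42 of the 47 genes (40.7% of all probes) and lower on both for 2 genes (42.7% of all probes). A gene is termed called where it passed such a fold on each array in the same direction. A total of 13 genes were at least 1.5-fold higher on each array, which is 27.7% of them, compared with 6.28% of all probes. A single gene was at least 1.5-fold lower on each array, Pttg1 (8.32% of all probes), and 2 genes were at least 2-fold higher, Aurkb and Mad2l1 (6.37% of all probes in either direction). Probes between the dimmest and the brightest of these genes (8.69 to 15.85 on the log2 scale) gave 7.40% called 1.5-fold higher. Their median was 0.00 over 13189 probes. This range is wide, and its probes were not matched to the brightness of the single genes. The count of 13 was 20 on the array with knockout RNA in Cy3 alone and 19 on the other array alone, and it was 1 where the arrays were centred on their median without removal of the dye trend by loess.

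In the G1KO comparison the ratios of these genes were smaller. Their median log2 ratio was 0.17, or 1.13-fold, with 0.15 and 0.19 on the individual arrays, whereas the median of all 25541 probes was -0.00. G1KO was higher than WT on both arrays for 29 genes (39.8% of all probes) and lower on both for 11 (40.8% of all probes), and the direction differed between arrays for 7. Cks1b was the single gene at least 1.5-fold higher on each array (5.04% of all probes), no gene was 1.5-fold lower (8.05% of all probes), and no gene passed 2-fold (5.79% of all probes). With 1 array alone the 1.5-fold count was 4 (knockout in Cy3) or 2 (knockout in Cy5), and with median centring in place of loess it was 0 and no gene was higher on both arrays. The spread of the single genes ran from -0.45 (Nusap1) to 0.79 (Cks1b). Their quartiles were -0.04 and 0.30, compared with -0.22 and 0.19 for all probes. The median SD between arrays was 0.08 over these genes, a technical spread that holds no difference between cultures.

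**Figure D2:**
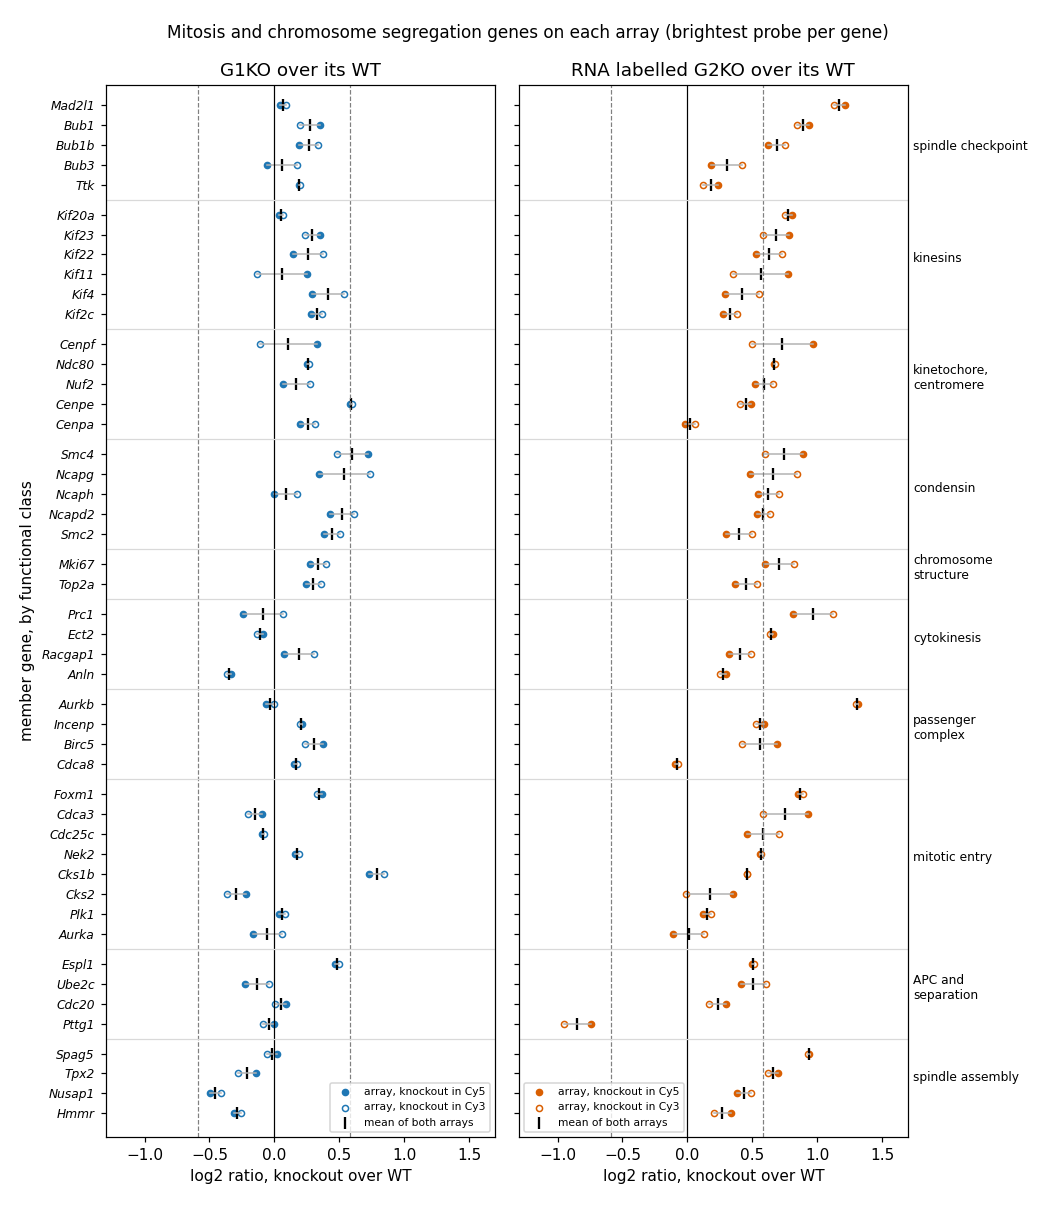
Log2 ratio of knockout over WT (horizontal axes) for the 47 genes, in rows by functional class, in the G1KO comparison (left) and in that of the RNA labelled G2KO (right). Filled points are the array with knockout RNA in Cy5, open points the swapped array, black ticks their mean, and dashed lines 1.5-fold. In the right panel nearly all points lie above 0 and Pttg1 stands alone at -0.85, whereas in the left panel the points lie on both sides of 0.

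In the classes below, signals are log2 signals of single channels, and values of a gene are log2 ratios of knockout over WT, with the SD where it is given. Where genotypes are said to overlap or not, both dye readings of a single RNA per genotype are meant. Such readings are not replicates, and the share of all probes without overlap is not given here. The spindle checkpoint genes encode the proteins that delay anaphase, and all 5 were higher on both arrays in the RNA labelled G2KO (median 0.69), with 3 called at 1.5-fold. Mad2l1, whose product Mad2 inhibits the anaphase-promoting complex at unattached kinetochores, had log2 signals of 11.75 in Cy5 and 11.72 in Cy3 in the RNA labelled G2KO, against 10.59 and 10.53 in its WT. The dyes thus agreed within 0.06 in each RNA, and the genotypes did not overlap. The log2 ratio was 1.17 ± 0.06, or 2.25-fold (chr6:66468570-66468629 on mm8, plus strand). A second probe of Mad2l1 gave 1.15. Bub1, a kinase that recruits checkpoint proteins to the kinetochore, had signals of 12.24 in Cy5 and 12.18 in Cy3 in the RNA labelled G2KO and 11.34 and 11.30 in its WT, a log2 ratio of 0.89 ± 0.06 (chr2:127492693-127492752, minus strand). Bub1b, the checkpoint pseudokinase BubR1, was also called, at 0.69 ± 0.09. Ttk, the kinase that starts checkpoint signalling, was at 0.18 and Bub3, the scaffold of Bub1 and BubR1, at 0.30 ± 0.17. In G1KO the 5 genes ran from 0.06 to 0.27 (median 0.19), and 4 were higher on both arrays. Mad2l1 was at 0.06 there and Bub1 at 0.27.

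Among the kinesins, the motors of spindle and midzone, all 6 were higher on both arrays in the RNA labelled G2KO, from 0.33 to 0.78 (median 0.60). Kif20a, which carries the passenger complex to the midzone, was called at 1.5-fold (0.78 ± 0.04). Kif23, the midzone motor of centralspindlin, was at 0.68 ± 0.14 and fell short on the array with knockout RNA in Cy3 (0.58). Kif22, which pushes chromosome arms outward, was at 0.63, Kif11, which drives the poles apart, at 0.56 ± 0.30, and Kif2c, a depolymerase that corrects wrong attachments, at 0.33. In G1KO the class ran from 0.05 to 0.41 (median 0.28), and 5 of the 6 were higher on both arrays. Kif4, a chromosome-bound kinesin, had nearly the same ratio in both comparisons, 0.41 ± 0.18 in G1KO, while the RNA labelled G2KO had 0.42 ± 0.19. It is the single X-linked gene of the 47, and Xist was higher in both knockout RNAs. Whether these values are related was not tested.

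The kinetochore and centromere genes link chromosomes to microtubules, and 4 of 5 were higher on both arrays in the RNA labelled G2KO (median 0.59). Ndc80, the microtubule-binding subunit of the outer kinetochore, was called, with 0.67 on each array. Its partner Nuf2 was at 0.59 ± 0.10, and Cenpf, a large corona protein, at 0.73 ± 0.33. Cenpa, the histone that marks centromeres, was at 0.02 ± 0.05 and thus within the spread between arrays. Cenpe, a kinesin that moves chromosomes to the spindle equator, was among the 5 highest genes in G1KO. Its signals were 14.85 in Cy5 and 14.90 in Cy3 in G1KO and 14.31 and 14.27 in WT, for a log2 ratio of 0.59 ± 0.01 (chr3:135210810-135210869, plus strand), which is just below 1.5-fold on the array with knockout RNA in Cy5. In G1KO the class had a median of 0.26.

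Condensin, the ring complex that compacts mitotic chromosomes, was the class with the largest median in G1KO (0.52), and it had 0.62 in the RNA labelled G2KO. Smc4, one of its ATPases, had signals of 14.66 in Cy5 and 14.78 in Cy3 in G1KO and of 14.30 and 13.95 in WT, a log2 ratio of 0.60 ± 0.17 (chr3:69122460-69122519, plus strand). In the RNA labelled G2KO it was called, at 0.74 ± 0.21. The genotypes did not overlap in either pair, but the dyes differed more in WT than in the knockout RNA. Ncapg, a HEAT-repeat subunit, had signals of 13.40 in Cy5 and 13.65 in Cy3 in G1KO against 12.91 and 13.06 in WT, a log2 ratio of 0.54 ± 0.28 (chr5:45988306-45988364, plus strand). Ncapd2, the other HEAT-repeat subunit, had 13.65 and 13.76 in G1KO against 13.14 and 13.23 in WT, a log2 ratio of 0.52 ± 0.13 (chr6:125133613-125133667, minus strand). Smc2, the partner ATPase, was at 0.44 and the kleisin Ncaph at 0.09 in G1KO. In the RNA labelled G2KO these 4 subunits were at 0.66 (Ncapg), 0.59 (Ncapd2), 0.40 (Smc2) and 0.62 (Ncaph), and all 5 were higher on both arrays. Of the chromosome structure genes, Mki67, the coat of mitotic chromosomes known as Ki-67, was called in the RNA labelled G2KO (0.71 ± 0.16) and was at 0.33 in G1KO. Top2a, the topoisomerase that disentangles chromatids, was at 0.45 and 0.30.

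The chromosomal passenger complex corrects faulty attachments and later directs cleavage, and its members diverged in the RNA labelled G2KO. Aurkb, its kinase, had signals of 11.55 in Cy5 and 11.58 in Cy3 in that RNA and of 10.28 and 10.24 in its WT. All dyes and arrays were within 0.04 of each other for each RNA, and the log2 ratio of 1.31 ± 0.01, or 2.47-fold, was the highest of the 47 genes (chr11:68867730-68867789, plus strand). Incenp, the scaffold, was at 0.56 ± 0.04 and Birc5, the survivin subunit, at 0.56 ± 0.19. Cdca8, the borealin subunit, was lower on both arrays, with signals of 14.43 in Cy5 and 14.45 in Cy3 against 14.53 in either dye in WT. Its log2 ratio of -0.08 ± 0.01 (chr4:124420869-124420928, minus strand) was small, and it turned to 0.06 in 1 of 8 alternative processings. In G1KO Aurkb was at -0.03 ± 0.04, while Birc5 (0.31), Incenp (0.20) and Cdca8 (0.16) were above 0.

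Cytokinesis genes act at the midzone and the cleavage furrow, and all 4 were higher on both arrays in the RNA labelled G2KO (median 0.52). Prc1, which bundles the antiparallel microtubules of the midzone, had signals of 14.26 in Cy5 and 14.38 in Cy3 there against 13.26 and 13.45 in WT, a log2 ratio of 0.97 ± 0.22, or 1.95-fold (chr7:80189665-80189717, plus strand). Ect2, which activates RhoA at the furrow, was called as well (0.65 ± 0.02), and with the mean over its probes it no longer was. Racgap1, the GTPase-activating subunit of centralspindlin, was at 0.40, and Anln, which anchors the actomyosin ring, at 0.27. In G1KO the median was -0.10 and the members differed in direction. Racgap1 was higher on both arrays (0.19), Ect2 (-0.11) and Anln were lower on both, and Prc1 (-0.09 ± 0.22) differed between arrays. Anln was among the 3 lowest of the 47 genes. Its signals were 10.20 in Cy5 and 10.15 in Cy3 in G1KO and 10.51 and 10.54 in WT, so that the genotypes did not overlap, and the log2 ratio was -0.35 ± 0.02 (chr9:22084524-22088340, minus strand).

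Spindle assembly factors showed the largest contrast between the comparisons, from a median of -0.25 in G1KO to 0.55 in the RNA labelled G2KO, where all 4 were higher on both arrays and 2 were called. Spag5, also termed astrin, which stabilises attachments at the kinetochore, had signals of 12.15 in Cy5 and 12.10 in Cy3 in the RNA labelled G2KO against 11.17 and 11.21 in WT, a log2 ratio of 0.93 ± 0.01, or 1.91-fold (chr11:78138348-78138407, plus strand). Tpx2, the activator of Aurora A on the spindle, was called at 0.66 ± 0.05. In G1KO Nusap1, which bundles microtubules near chromosomes, was the lowest of the 47 genes, with signals of 11.46 in Cy5 and 11.50 in Cy3 against 11.92 and 11.95 in WT (-0.45 ± 0.06, or 0.73-fold; chr2:119340777-119340836, plus strand). Tpx2 was at -0.21, Hmmr at -0.29 and Spag5 at -0.02. Hmmr, which encodes a spindle protein that binds hyaluronan, was read 42.9 kb from the Ccng1 probe on chromosome 11, the locus deleted in G1KO. In the RNA labelled G2KO Nusap1 was at 0.44 and Hmmr at 0.27.

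Mitotic entry genes ranged widely. Cks1b, a small subunit of cyclin-dependent kinases, was the highest gene in G1KO, with signals of 15.46 in Cy5 and 15.71 in Cy3 against 14.86 and 14.73 in WT, a log2 ratio of 0.79 ± 0.08, or 1.73-fold (chr3:89501415-89501474, minus strand). Its paralogue Cks2 went the other way in G1KO at its brightest probe, with 14.75 and 14.54 against 14.90 and 14.97 in WT (-0.29 ± 0.10; chr13:51663025-51663084, plus strand). A second probe of Cks2 differed in direction between arrays there, with 0.18 where knockout RNA was in Cy5 and -0.68 in Cy3 (-0.25 ± 0.61). In the RNA labelled G2KO Cks1b was at 0.46 and Cks2 at 0.17 ± 0.26, within its spread. Foxm1, the transcription factor of many of these genes, was called there (0.87 ± 0.03) and was at 0.35 in G1KO. Cdca3, a trigger of Wee1 destruction, was at 0.75 ± 0.24, Cdc25c, a phosphatase that activates Cdk1, at 0.58 ± 0.17, and Nek2, a centrosome kinase, at 0.56. Plk1, the Polo kinase, was at 0.15. Aurka, the Aurora kinase of the spindle poles, was among the 3 lowest genes in the RNA labelled G2KO, with 14.26 in Cy5 and 14.35 in Cy3 against 14.22 and 14.37 in WT, so that the genotypes overlapped (0.01 ± 0.17; chr2:172047439-172047498, minus strand). In G1KO the class median was 0.00, and Plk1, Nek2, Cdc25c, Cdca3 and Aurka lay between -0.15 and 0.17.

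Of the genes of the anaphase-promoting complex and sister separation, Pttg1 stood apart. It encodes securin, the inhibitor of separase, and its signals were 13.43 in Cy5 and 13.30 in Cy3 in the RNA labelled G2KO against 14.25 and 14.17 in WT, a log2 ratio of -0.85 ± 0.15, or 0.56-fold (chr11:43263722-43263781, minus strand). The genotypes did not overlap, and Pttg1 was the single gene of the 47 called lower in either comparison. Both RNAs of that pair were above those of the G1KO pair, in which the signals lay between 12.45 and 12.53 and the log2 ratio was -0.04 ± 0.06. Espl1, which encodes separase itself, was higher by 0.51 ± 0.01 in the RNA labelled G2KO, and G1KO was above its WT by 0.48 ± 0.02. Ube2c, the ubiquitin-conjugating enzyme of the complex, was at 0.51 and -0.14, and Cdc20, its activator in anaphase, at 0.24 and 0.05.

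**Figure D3:**
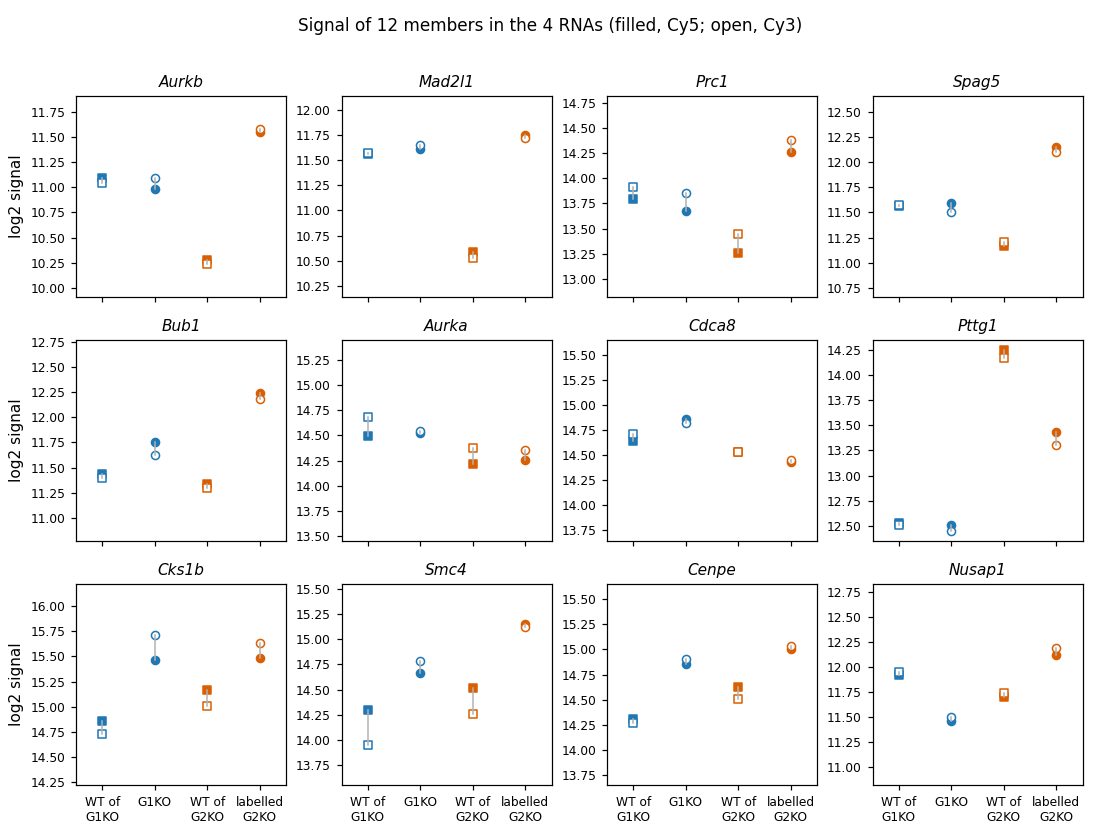
Log2 signal (vertical axes, each spanning at least 2 units) of 12 genes in the 4 RNAs, filled in Cy5 and open in Cy3, blue for the G1KO pair and orange for the G2KO pair, squares for WT and circles for knockout. For Aurkb and Mad2l1 the WT of G2KO is the lowest of the 4 RNAs and the RNA labelled G2KO the highest, while for Pttg1 both RNAs of the G2KO pair lie above those of the G1KO pair.

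The 4 RNAs were also placed on 1 scale. The median log2 signal of the 47 genes was 12.25 in the WT of G1KO, 12.48 in G1KO, 12.31 in the WT of G2KO and 12.85 in the RNA labelled G2KO. By these medians the WT of G2KO was slightly above the WT of G1KO, whereas the order was the reverse for most single genes. The WT of G2KO was the lowest of the 4 RNAs for 29 of the 47 genes (61.7%), compared with 23.6% of the 24150 probes assessed in both comparisons. The RNA labelled G2KO was the highest for 33 genes (70.2%), compared with 27.7% of these probes. Gene by gene the WT of G2KO was below the WT of G1KO by a median of 0.20, and the RNA labelled G2KO was above G1KO by 0.21. These signals come from different arrays, were scaled together, and are open to dye bias.

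Directions in both comparisons were then set side by side. On all 4 arrays 27 of the 47 genes (57.4%) were higher in the knockout RNA, compared with 16.4% of the 24150 probes assessed in both, among them all condensin genes but Ncaph and all kinesins but Kif11. For 9 genes, Anln, Aurkb, Cdc25c, Cdca3, Ect2, Hmmr, Nusap1, Tpx2 and Ube2c, G1KO was lower than its WT on both arrays and the RNA labelled G2KO higher. These 9 are 19.1% of the 47 genes, which is near the 17.3% of all probes with this pattern. Cdca8 was the reverse. Pttg1 was below 0 on all 4 arrays, but in G1KO it was near 0 (-0.0008 and -0.0856). Its sign there turned in 2 of 8 alternative processings. The comparisons shared no WT culture. Across the 47 genes, which are not independent, the log2 ratios of both comparisons correlated at r = 0.11. The difference between the arrays of a pair repeated from one pair to the other (r = 0.91 over the 47 genes, 0.76 over all 24150 probes). A difference that repeats in this way enters the ± of a gene and cancels in the mean of a swapped pair.

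**Figure D4:**
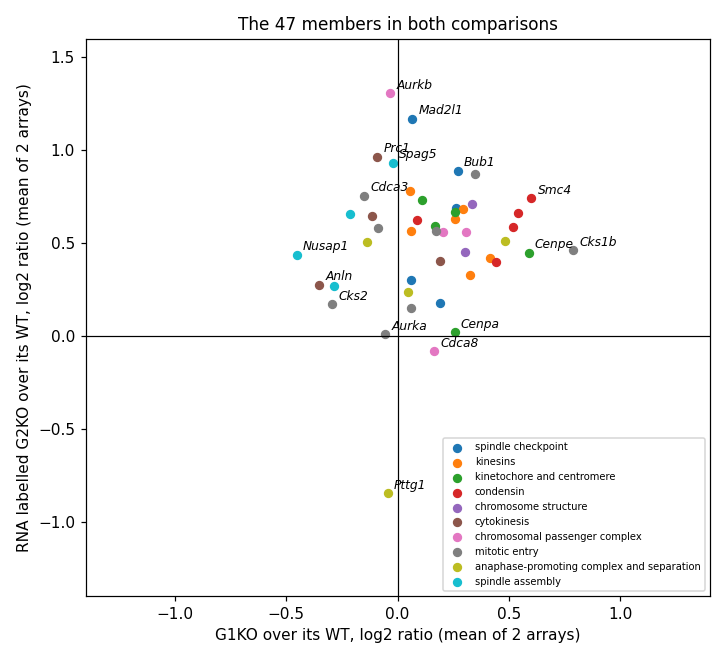
Log2 ratio of the 47 genes in G1KO (horizontal axis) against that of the RNA labelled G2KO (vertical axis), each the mean of both arrays, coloured by functional class. Most points lie above the horizontal line at 0 on either side of the vertical one, and Pttg1 lies alone at the lower end.

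A total of 21 of the 47 genes had a single probe, and 23 had at least 2 that could be assessed. Probes of a gene differed in the sign of the ratio for 2 genes in each comparison. In G1KO these were Kif11 (signals of 10.02 in Cy5 and 9.78 in Cy3 against 9.91 and 9.77 in WT, ratio 0.06; dimmer probes 0.04 and -0.10) and Cenpf (13.03 and 12.69 against 12.80 and 12.70, ratio 0.11; dimmer probe -0.18). In the RNA labelled G2KO they were Bub3 (13.69 and 13.82 against 13.40 and 13.51, ratio 0.30; dimmer probes -0.04 and 0.37) and Nusap1 (12.12 and 12.19 against 11.70 and 11.74, ratio 0.44; dimmer probe -0.04). The dimmer probe of Nusap1 had a log2 brightness of 6.58, against 11.82 for the brightest. The 1.5-fold call differed between probes for 0 genes in G1KO, compared with 7 in the other pair. The widest was Racgap1, with signals of 11.44 in Cy5 and 11.57 in Cy3 against 11.08 and 11.12 in WT, where the brightest probe gave 0.40 and the other 0.96. For Cenpe (at most 15.03 in the RNA labelled G2KO, against 14.63 and 14.51 in WT) the brightest probe gave 0.45 and another 0.72, and for Ect2 (13.56 and 13.61 against 12.98 and 12.90) the probes gave 0.65 and 0.47. For Cenpf (13.36 and 13.18 against 12.69 and 12.39), Ncapg (13.57 and 13.82 against 12.98 and 13.09), Cdca3 (14.23 and 14.24 against 13.66 and 13.30) and Kif23 (12.48 and 12.41 against 11.83 and 11.70) the probes differed by at most 0.13. These 4 calls differed because the brightest probe fell short of 1.5-fold on 1 array.

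Other genes of cell division were taken from 10 lists holding 182 genes, of which 138 were outside S phase. Of those 138, 31 were called 1.5-fold higher and 3 lower in the RNA labelled G2KO (median 0.27), compared with 6.28% and 8.32% of all probes. Higher on both arrays there were 98 of them, compared with 40.7% of all probes. In G1KO 137 could be assessed, of which 1 was called higher and 3 lower (median 0.10), compared with 5.04% and 8.05% of all probes. These shares of all probes also apply to the separate lists below, which hold 3 to 44 genes. In the shorter lists a single call cannot be told from such a share. The kinases and cyclins that drive mitosis were for the most part higher in the RNA labelled G2KO. Cdk1 was called there at its brightest probe (0.81, with 0.74 and 0.88 on the individual arrays). Its dimmer probe gave 0.10, and the mean over both (0.45) was not called. The dimmer probe of Cdk1 had a log2 brightness of 6.45, against 13.03 for the brightest. In the WT of that pair it was above background on 1 array alone, so that it could hardly register a difference. Ccnb1, cyclin B1, was at 0.61 with 0.66 and 0.57, Ccna2, cyclin A2, was at 0.55, and Ccnb2, cyclin B2, at 0.01. In G1KO Ccna2 was at 0.46, while Ccnb1 (-0.14), Ccnb2 (-0.20) and Cdk1 (-0.38) were below 0.

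Of 34 other kinetochore and centromere genes, 9 were called higher and 0 lower in the RNA labelled G2KO (median 0.39), compared with 6.28% and 8.32% of all probes. None was called in either direction in G1KO (median 0.15), compared with 5.04% and 8.05% of all probes. Ska1, which holds kinetochores on depolymerising microtubules, passed 2-fold at its brightest probe in the RNA labelled G2KO (1.25, with 1.16 and 1.33). Its dimmer probe gave 0.17, and the mean over both (0.71) passed 1.5-fold alone. The dimmer probe of Ska1 had a log2 brightness of 6.30, against 11.62, and was above background on 0 arrays in the WT of that pair. Oip5, which loads Cenpa at the centromere, passed 2-fold as well (1.07 ± 0.09). Of 25 other spindle and cytokinesis genes, 7 were called higher and 0 lower there (median 0.43), and 4 of these passed 2-fold. Psrc1, a microtubule regulator, was the highest at 2.88 (2.76 and 3.00), and its dimmer probes gave 2.28 and 1.93. Ckap2, a spindle protein, was at 1.62, Gtse1, a protein of G2 and S phase, at 1.53, and Cep55, which recruits the abscission machinery to the midbody, at 1.09. With its dimmer probe (0.89) Cep55 had a mean of 0.99 and no longer passed 2-fold. In G1KO Psrc1 was the single gene of this list called, and it was lower (-0.87, with -1.06 and -0.69).

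The remaining lists were less uniform. Of 8 other kinesins 1 was called higher in the RNA labelled G2KO (median 0.34), and of 14 cohesin genes and regulators 3 (median 0.11). None of the 3 genes particular to condensin II was called, with a median of 0.21 there and 0.20 in G1KO. The list of the anaphase-promoting complex, which also holds its activators, inhibitor and ubiquitin-conjugating enzymes, had a median of 0.00 in G1KO and one of -0.09 for the RNA labelled G2KO. Its genes lay on both sides of 0, from -0.52 to 0.39 in G1KO. In the other pair 1 of 16 genes was called lower, the subunit Cdc16 (-0.89), and 1 higher, the inhibitor Fbxo5 (0.98 and 1.02 on the individual arrays). Both counts are near the shares of all probes. Of 18 DREAM and MuvB regulators 5 were called higher and 1 lower in the RNA labelled G2KO (median 0.19). Rb1, the retinoblastoma repressor of E2F, passed 2-fold there (2.33, with 2.23 and 2.43) and was at -0.35 in G1KO. Tfdp2, a dimer partner of E2F, passed 2-fold lower in G1KO (-1.53, with -1.48 and -1.59) and its dimmer probes were called lower there too (-1.23 and -1.11). Its brightest probe was also called lower in the RNA labelled G2KO (-0.81), but the dimmer ones gave -0.39 and -0.36, and the mean over the probes (-0.52) was not called. Of 16 entry kinases and phosphatases 4 were called higher and 1 lower in the latter (median 0.30). The lower one was Plk2, a p53-responsive Polo kinase, which passed 2-fold lower in G1KO (-1.21) and was at -0.88 in the RNA labelled G2KO. Of 44 S-phase genes 10 were called higher there and 0 lower (median 0.39), with Mcm2 of the replicative helicase past 2-fold (1.07). In G1KO 3 of 43 were called higher (median 0.23), which is near the share of all probes.

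**Figure D5:**
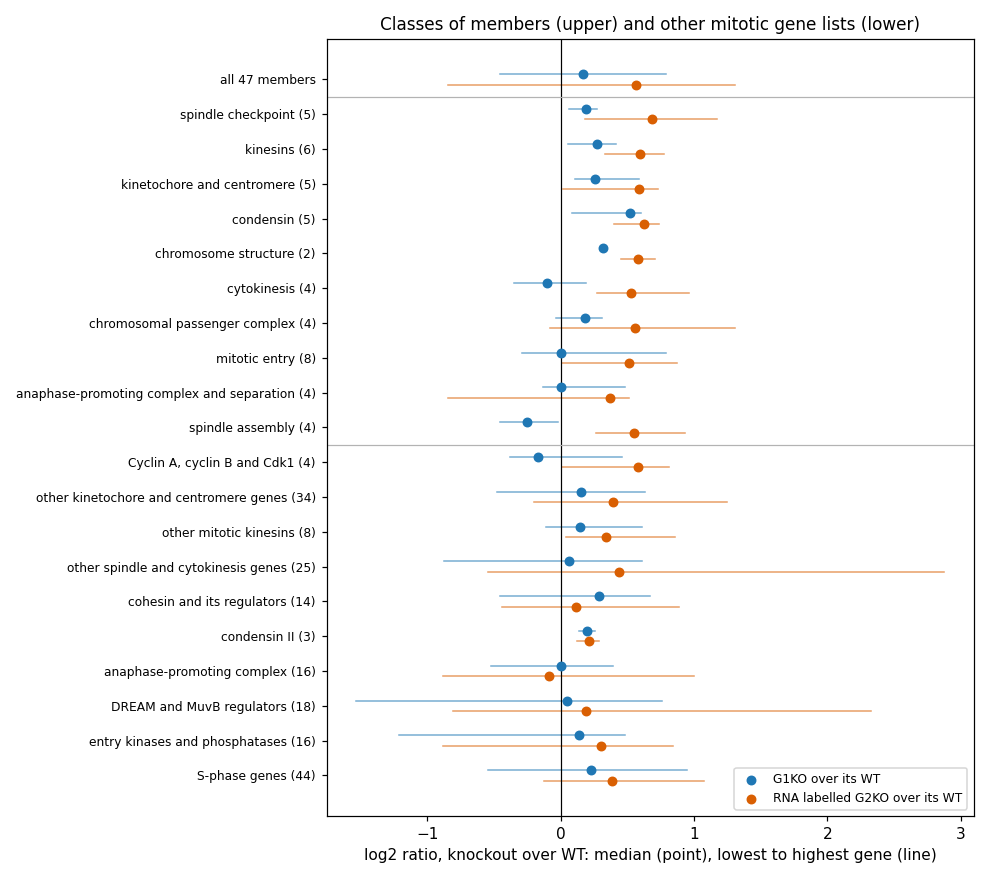
Median log2 ratio of knockout over WT (points) and the lowest to the highest gene (lines) for the 47 genes, their 10 classes and the 10 other lists, with the number of genes in brackets, blue for G1KO and orange for the RNA labelled G2KO. The orange median lies above the blue one in all 10 classes of the 47 genes, and the order is the reverse in cohesin and in the anaphase-promoting complex.

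The ratios of genes with and without a promoter word were set side by side as a description, and no difference was tested. The 32 genes with a CHR word had a median log2 ratio of 0.485 where the RNA labelled G2KO was compared and 0.22 for G1KO, and the 8 without one had 0.58 and 0.08. The 31 genes with a CCAAT word had 0.51 and 0.19, and those without one 0.56 and 0.09. Ncapd2 and Ncapg, the 2 genes with an E2F word, had 0.62 and 0.53, and those without one had 0.485 and 0.17. Mad2l1, second highest in the RNA labelled G2KO, and Pttg1, the lowest, both lacked all of the words.

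Outside these genes, the pattern most like theirs was sought as the distance of the log2 ratios of a gene from the medians of the 47 genes on the 4 arrays (0.15 and 0.19 in G1KO, 0.52 and 0.55 in the other pair). The nearest were Abhd6 (distance 0.05), Mpdu1 (0.06), Tcf19 (0.06), Rapgef6 (0.07) and the transcript AK122525 (0.07).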

How the data were processed

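RNA of 1 knockout and 1 WT culture per comparison was hybridised on mouse arrays of Agilent, each with 45018 spots. The authors scanned the arrays and extracted the spots with Agilent Feature Extraction, of version 10.5.1.1 per the file headers and 9.1 per the submitters' processing notes. The deposited files hold intensity on a linear scale, as mean spot brightness and median local background per channel, without correction. They also hold the log10 ratio of Cy5 over Cy3 that the authors obtained from the same software after background subtraction, detrending and dye normalisation. The authors' series table holds this log10 ratio turned to knockout over WT.

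The intensities were taken through limma 3.58.1 (R 4.3.3). Background was corrected by normexp with an offset of 50, control spots and outlier spots were left out, and each array was normalised by loess. Spots of a probe were averaged, each ratio was given the direction knockout over WT, and both arrays were averaged. Signals of single channels come from loess and Aquantile normalisation. A probe was assessed where at least 1 genotype was well above background on both arrays by the scanner's flag. It was called where it passed 1.5-fold (0.585 on the log2 scale) or 2-fold on each array in the same direction. No spot was saturated. The steps were tested on simulated data with planted changes larger than 2-fold, and for the 2-fold call alone. Neither the 1.5-fold call nor shifts as small as the medians of these genes were simulated. There was 1 slide and 1 scan for all 4 arrays, hence no batch to fit. Precision is limited by how few arrays there are.

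The 47 genes, their classes, the other lists and the tests were chosen with earlier results of these data known. Genes given with every signal are, per comparison, the 5 highest and 3 lowest, those past 2-fold, and those whose probes disagree in sign or call. From the lists, genes past 2-fold and 4 mitotic cyclin and kinase genes are named. Of 226 genes in lists, 193 were found by symbol and 33 by RefSeq accession (GRCm38.p6, used for names and promoters alone). Probes were placed on mm8 (NCBI 36) by the array design. Their place within a transcript was not analysed here. Alternatives were no background correction, an offset of 16, the scanner's log ratio, the series table, median centring, other filters on dim probes, the mean over probes, and single arrays.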

Additional observations from a re-analysis of the deposited data

Results flagged for a closer look

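Genes are listed here when every array of one comparison pointed one way and every array of the other the opposite way. The value is the log2 ratio in the RNA labelled G2KO minus that in G1KO, and no such difference was tested. Of the 47 mitotic genes 10 qualified (21.3%), compared with 35.8% of the 24150 probes assessed in both comparisons. The value was 1.34 for Aurkb, 0.90 for Cdca3, 0.89 for Nusap1, 0.87 for Tpx2, 0.76 for Ect2, 0.67 for Cdc25c, 0.64 for Ube2c, 0.63 for Anln, 0.55 for Hmmr and -0.25 for Cdca8. For Aurkb the sign in G1KO turned in 3 of 8 alternatives, since its ratio there was -0.03. Among the named genes of the other lists it was 3.75 for Psrc1, 2.68 for Rb1, 1.91 for Ckap2, 1.67 for Gtse1, 1.54 for Oip5, 1.35 for Cep55, 1.19 for Cdk1 and 0.75 for Ccnb1. These directions are those of the brightest probes. For Cep55 a dimmer probe was above 0 in G1KO (0.20). In G1KO the arrays differed in direction at a dimmer probe of Ect2 (0.12 and -0.15) and of Ccnb1 (0.01 and -0.25). In the RNA labelled G2KO they differed at the dimmer probe of Nusap1 (0.06 and -0.14). The same held there for the dimmer probes of Cdca8 (-0.11 and 0.03, and -0.06 and 0.01). For Ccng1, the gene deleted in G1KO, it was 9.33, since Ccng1 was higher in the RNA labelled G2KO than in its WT by 2.67.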

How the results depend on the processing

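The median of the 47 genes stayed above 0 in both comparisons under every alternative run. In G1KO it moved from 0.17 to 0.21 with the scanner's log ratio, 0.21 with the series table and 0.20 with median centring, and in the RNA labelled G2KO from 0.56 to 0.59, 0.59 and 0.66. Median centring keeps the dye trend of bright probes on each array, so that the median of the 47 genes was 1.41 with knockout RNA in Cy5 and -0.10 in Cy3 in the G2KO pair and 0.96 and -0.61 in the G1KO pair. It therefore took the genes higher on both arrays from 29 to 0 in G1KO and from 42 to 13 in the RNA labelled G2KO, and left 0 and 1 called 1.5-fold higher, 0 lower and 0 past 2-fold. Outside it, Ect2 was the single one of the 47 genes that lost its call, with the mean over its probes, as did Cdk1 (0.45) and Tfdp2 (-0.52) in the RNA labelled G2KO and the fibroblast marker Pdgfra (0.57) in G1KO, while 8 genes of the RNA labelled G2KO and Cenpe in G1KO gained one in at least 1 of 8 alternatives. No background correction and the offset of 16 each gave 2 genes called higher in G1KO in place of 1. On single arrays, the genes called higher ranged from 2 to 4 in G1KO and from 19 to 20 in the RNA labelled G2KO, whose median ranged from 0.52 to 0.55. Within a shorter promoter window that ends at the start, 18 of 40 genes held a CHR word, in place of 32. The share of other genes with a CHR word was 22.5% there, in place of 30.5%. The CCAAT word stayed at 31 genes, compared with 32.7% of other genes. An E2F word was held by 1 gene in place of 2, compared with 4.04% of other genes. The slide could not be a block, since there was 1 slide. No paired analysis was possible because each comparison has 1 knockout and 1 WT culture, and the arrays of a pair share the same RNAs.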
